A study of Mus musculus with 6 samples.

Results

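The 6 B cell chemokine receptor genes Cxcr4, Cxcr5, Ccr6, Ccr7, Cxcr3 and Ccr9 were taken from an array data set of mouse splenic B cells by their annotated gene symbol. They were carried by 9 of the 25697 probes and make up 6 of the 16110 genes with a named probe. RNA from the spleens' B cells had been hybridised to 6 single-colour Illumina bead arrays, 3 of the Control group (normal B cells) and 3 of the TRAF3KO group (premalignant B cells of genotype TRAF3-/-). The sources used here do not say how TRAF3 was deleted, in which cells, what strain and age the mice had, or whether each array held 1 mouse. The p-values therefore cover only the spread among these arrays, part of which could be technical. TRAF3 is an adaptor protein that holds back non-canonical NF-kB signalling, and the comparison asks what differs in B cells that lack it before lymphoma appears.

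Chemokine receptors are seven-transmembrane receptors that couple mainly to inhibitory G proteins and steer a cell along a gradient of their ligand. In the spleen, CXCL13 draws B cells carrying CXCR5 into follicles, CCL19 and CCL21 draw cells carrying CCR7 towards the T cell zone, and CXCL12 acts through CXCR4 in the bone marrow, the red pulp and the germinal centre dark zone. CCR6 answers CCL20, CXCR3 answers the interferon-induced ligands CXCL9, CXCL10 and CXCL11, and CCR9 answers CCL25, the ligand of gut and thymus.

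The values are log2 intensities as the authors deposited them, on a scale that starts at a floor of 0 and ends at 16.15. A probe was tested when it lay above the 40th percentile of its array, on average log2 3.96, on at least 3 of the 6 arrays. This held for 7 of the 9 receptor probes and 5 of the 6 genes, with Ccr9 left under the filter. Each probe was fitted with limma over all 15657 kept probes, the brightest probe stands for its gene, and the threshold for a call was an adjusted p of 0.05. The B cell markers Cd79a, from 15.89 to 16.08, and Ms4a1, from 11.57 to 11.84, were present on all 6 arrays. Of 15 T cell markers with a probe, 5 lay under the filter (Cd4, Cd8a, Lat, Trat1 and Bcl11b), with Cd8a and Lat at the floor on all 6 arrays. Cd3e read 4.26 to 5.46, Cd3g 4.47 to 6.38 and Cd8b1 at least 6.44, beside an array median of about 5.35 over all probes. Cd3d read 4.87, 5.92 and 5.88 in Control and 0.68, 5.74 and 0 in TRAF3KO. Whether T cells were present was not tested. Judged by Xist and Eif2s3y, 3 arrays held RNA of male mice (Control replicates 1 and 3, TRAF3KO replicate 1) and 3 of female mice, a point that the labels do not give.

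In cells without TRAF3 the transcript of Cxcr4 was lower and those of Cxcr5 and Ccr6 were higher than in normal B cells. Cxcr4 fell by 1.10 ± 0.07 (log2 difference and SE, n = 3 per group, the form used for all differences), Cxcr5 rose by 0.35 ± 0.07 and Ccr6 rose by 0.66 ± 0.09. Ccr7 differed by -0.42 ± 0.17 and Cxcr3 by 0.08 ± 0.43, and neither passed the test. Thus 3 of the 5 tested receptors were called, 2 higher and 1 lower, against 4.44% of all 10304 tested genes (2.3% higher and 2.14% lower). The groups did not overlap for the same 3 receptors, against 22.4% of all tested genes. The receptors were chosen with earlier results of these data known, so these shares describe the set and are no test of it. The median difference of the 5 tested receptors was 0.08, beside 0.004 over all tested genes.

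**Figure D1:**
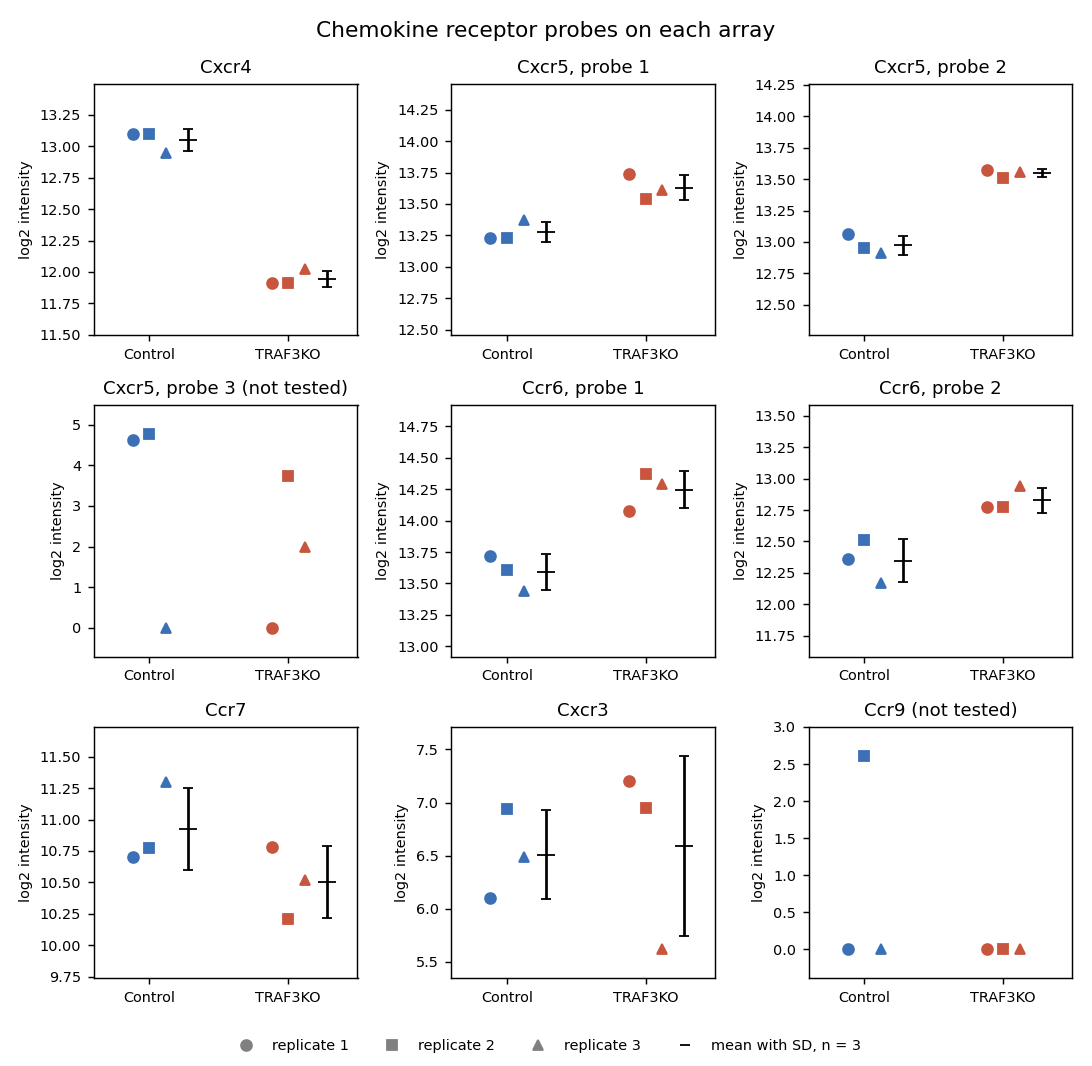
Log2 intensity of each of the 9 receptor probes (vertical axis, a different range in each panel) on the 3 Control and 3 TRAF3KO arrays, with the replicate number as the marker shape and the mean and SD as black bars for tested probes. The Cxcr4 points of TRAF3KO lie below every Control point, both bright Cxcr5 probes and both Ccr6 probes lie above, and the points of Ccr7 and Cxcr3 overlap between groups.

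Cxcr4 encodes the receptor for CXCL12. Its single probe read 13.10, 13.10 and 12.95 on the Control arrays and 11.91, 11.91 and 12.02 on the TRAF3KO arrays. The groups were separated by a gap of 0.93, several times the range within either group (0.15 and 0.11). The difference was a 2.15-fold lower signal in TRAF3KO, at 0.465 of control with a 95% interval of 0.415 to 0.521 (limma adjusted p = 2.2e-05). By p-value Cxcr4 ranked 9 among the 10304 tested genes, and by size of difference 1226. In RNA of a bulk sample, fewer cells carrying a transcript and less of it per cell cannot be told apart. The difference was -1.12 among the arrays of male mice and -1.14 among those of female mice. TRAF3KO replicate 1 was the only male array of its group and Control replicate 2 the only female array of its group. This limit holds for every difference within a sex given here, and none was tested. Since Sdc1, which encodes the plasma cell marker CD138, also fell (from 8.47 ± 0.08 to 6.26 ± 0.21; mean and SD, n = 3; limma adjusted p = 2.4e-04) and plasma cells carry CXCR4, the plasma cell markers are given here as well: 1 of 6 tested rose (Xbp1) and 1 fell (Sdc1). Their summed intensity over 8 genes was 62138 to 64375 in Control and 69731 to 75838 in TRAF3KO, most of it Mzb1, and without Mzb1 it was 10868 to 11626 and 12776 to 13538. Most of that remainder was Xbp1 (mean 12.21 in Control and 12.69 in TRAF3KO) and Irf4 (12.3 and 12.37). Jchain was dim, at 5.19 and 5.15, and Prdm1 and Tnfrsf17 were under the filter. None of the 8 was at the floor on every array, and their part in the Cxcr4 result was not tested.

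The stretch around the Cxcr4 transcription start is shown because this gene had the largest called difference of the 6. It holds the 250 bases before and 50 bases after the RefSeq start (GRCm38.p6, chr1:128592250-128592549, - strand, 59.3% G and C, printed 5′ to 3′ in the direction of transcription).
Cxcr4: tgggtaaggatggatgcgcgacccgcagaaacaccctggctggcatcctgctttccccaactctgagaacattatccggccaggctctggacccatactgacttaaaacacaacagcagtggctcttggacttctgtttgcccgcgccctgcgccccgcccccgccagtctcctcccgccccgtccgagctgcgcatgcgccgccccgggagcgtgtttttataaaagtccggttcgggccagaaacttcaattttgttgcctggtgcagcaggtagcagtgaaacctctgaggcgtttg
On both strands, 4 motifs were searched: the NF-kB-type motif GGGNNNNNCC, the octamer ATGCAAAT, the forkhead motif GTAAACA and the hypoxia-type core ACGTG. The Cxcr4 window held 0 matches to each of the 4. Of all 32851 RefSeq windows of this length, 50.8% held the NF-kB-type motif, 1.74% the octamer, 3.65% the forkhead motif and 19.6% the hypoxia-type core. A match is a description of letters and no measure of binding.

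Cxcr5 encodes the follicle-homing receptor for CXCL13. Its brightest probe read 13.23, 13.23 and 13.37 in Control and 13.74, 13.54 and 13.61 in TRAF3KO. All 3 TRAF3KO arrays were above all 3 Control arrays, with a narrow gap of 0.18. The signal was 1.28-fold of control (95% interval 1.14 to 1.43; limma adjusted p = 0.024). The call was lost when replicate 1 or 2 of Control was removed (limma adjusted p = 0.1 and 0.071) and when replicate 1 or 3 of TRAF3KO was (0.092 and 0.052).

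A second Cxcr5 probe for the same RefSeq transcript gave a larger difference. It read 13.06, 12.95 and 12.91 in Control and 13.57, 13.51 and 13.56 in TRAF3KO, with a gap of 0.45 between the groups. The signal was 1.49-fold of control (95% interval 1.34 to 1.64; limma adjusted p = 7.9e-04), and the call held in all 6 fits lacking 1 array but was lost without a trend (adjusted p = 0.079) and in the linear model without variance moderation (0.055). Within an array the first probe stood above the second by 0.30 on average in Control and 0.09 in TRAF3KO, a shift of -0.22. An exact two-sided permutation test over the 6 arrays gave p = 0.2 (adjusted p = 0.3 over the 2 genes with a pair of tested probes). The smallest p that 3 against 3 arrays allow is 0.1, so this test could not reach the threshold and does not show that the probes agree. Another Cxcr5 probe lay near the floor, at 4.63, 4.77 and 0 in Control and 0, 3.74 and 2.00 in TRAF3KO, and was not tested. The bright probes differed by 0.45 and 0.58 among males and by 0.34 and 0.58 among females.

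Ccr6, the receptor for CCL20, rose on both of its probes. The brighter probe read 13.72, 13.61 and 13.44 in Control and 14.08, 14.37 and 14.29 in TRAF3KO. The lowest TRAF3KO array, replicate 1, was 0.36 above the highest Control array. The signal was 1.58-fold of control (95% interval 1.37 to 1.81; limma adjusted p = 0.0025). The dimmer probe read 12.36, 12.51 and 12.17 in Control and 12.77, 12.77 and 12.94 in TRAF3KO, a 1.39-fold signal (95% interval 1.21 to 1.61; limma adjusted p = 0.017). Both probes thus separated the groups, the second by 0.26. The call of the brighter probe held in all 6 fits lacking 1 array, and that of the dimmer probe was lost when replicate 1 or 3 of Control or replicate 3 of TRAF3KO was removed (limma adjusted p = 0.064, 0.058 and 0.057). Within an array the difference between the probes moved by 0.18 between groups (exact two-sided permutation test, p = 0.3, adjusted p = 0.3). Here too the test could not reach the threshold with 3 against 3 arrays. Among males the probes differed by 0.50 and 0.50, and among females by 0.72 and 0.34. The calls of both Cxcr5 (on its brightest probe) and Ccr6 were lost without the filter on dim probes, without a trend in the variance model and without variance moderation (limma or linear model adjusted p from 0.12 to 0.23).

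RefSeq lists 2 starts for Ccr6, and the windows around both are shown, since they differ in the motifs searched (GRCm38.p6, + strand, chr17:8235793-8236092 upstream and chr17:8242276-8242575 downstream, printed 5′ to 3′). Capitals mark matches to the octamer, read on the opposite strand, in the first window and overlapping matches to the NF-kB-type motif in the second.
Ccr6 upstream start: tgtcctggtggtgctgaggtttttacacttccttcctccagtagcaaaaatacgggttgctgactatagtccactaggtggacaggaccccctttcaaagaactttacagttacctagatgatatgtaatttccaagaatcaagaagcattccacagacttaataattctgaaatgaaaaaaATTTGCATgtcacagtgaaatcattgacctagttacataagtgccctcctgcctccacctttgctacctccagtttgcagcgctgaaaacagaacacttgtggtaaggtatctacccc
Ccr6 downstream start: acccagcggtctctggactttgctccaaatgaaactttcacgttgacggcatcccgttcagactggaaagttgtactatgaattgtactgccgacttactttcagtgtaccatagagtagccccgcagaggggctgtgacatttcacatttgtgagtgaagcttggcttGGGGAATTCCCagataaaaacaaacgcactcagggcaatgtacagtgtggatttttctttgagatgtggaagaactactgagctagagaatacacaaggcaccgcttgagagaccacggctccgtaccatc
The upstream window held 1 octamer match, which begins at base -68 from the start, and 0 NF-kB-type matches. The downstream window held overlapping NF-kB-type matches over 1 stretch, beginning at base -81 and at base -80. The match at base -80 reads alike on both strands and was counted on each, which gives 3. This window also held 1 match to the hypoxia-type core at base -212. The array probes are annotated to the transcript and do not tell the starts apart. Of the other receptors, Cxcr3, which was not called, had 1 NF-kB-type match in its window. The window of Ccr9, which was not tested, held 2. Cxcr4, Ccr6 and Cxcr3 alone had both a window and a tested difference, and a relation of matches to differences was not tested. Windows of Cxcr5 and Ccr7 were not used here.

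Ccr7, the receptor that takes B cells towards the T cell zone, was not called. It read 10.70, 10.77 and 11.30 in Control and 10.78, 10.21 and 10.52 in TRAF3KO. Control replicate 3 stood above the other arrays of its group, and TRAF3KO replicate 1 lay between the 2 lower Control arrays and the highest. The signal was 0.747 of control with a 95% interval of 0.574 to 0.973 before any adjustment, and the limma adjusted p over all kept probes was 0.26. Without Control replicate 3 the difference was -0.23, and without TRAF3KO replicate 1 it was -0.56. Among males it was -0.22 and among females -0.40. T cells carry CCR7 too. Of 10 tested T cell markers 1 fell (Cd2, which mouse B cells also carry) and 0 rose. The summed intensity of 15 T cell markers was 7986 to 8645 in Control and 5255 to 6616 in TRAF3KO, almost all of it Cd2, and without Cd2 it was 451 to 644 and 281 to 633, ranges that overlap. Their part in the Ccr7 values was not tested.

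Cxcr3, the receptor for the interferon-induced ligands, was dim and variable. It read 6.10, 6.94 and 6.49 in Control and 7.20, 6.95 and 5.62 in TRAF3KO. TRAF3KO held both the highest and the lowest array, so the groups overlapped throughout. The difference was 0.91 among males and -0.65 among females, where 1 of the groups had a single array in each case and the contrast was not tested. The signal was 1.06-fold of control with a 95% interval of 0.55 to 2.03 (limma adjusted p = 0.95), an interval that takes in both lower and higher levels. Ccr9, the gut-homing receptor, was listed at 0 on all 3 TRAF3KO arrays and on Control replicates 1 and 3, with 2.61 on Control replicate 2. No array reached the 40th percentile for Ccr9, so it had no level that could be compared.

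**Figure D2:**
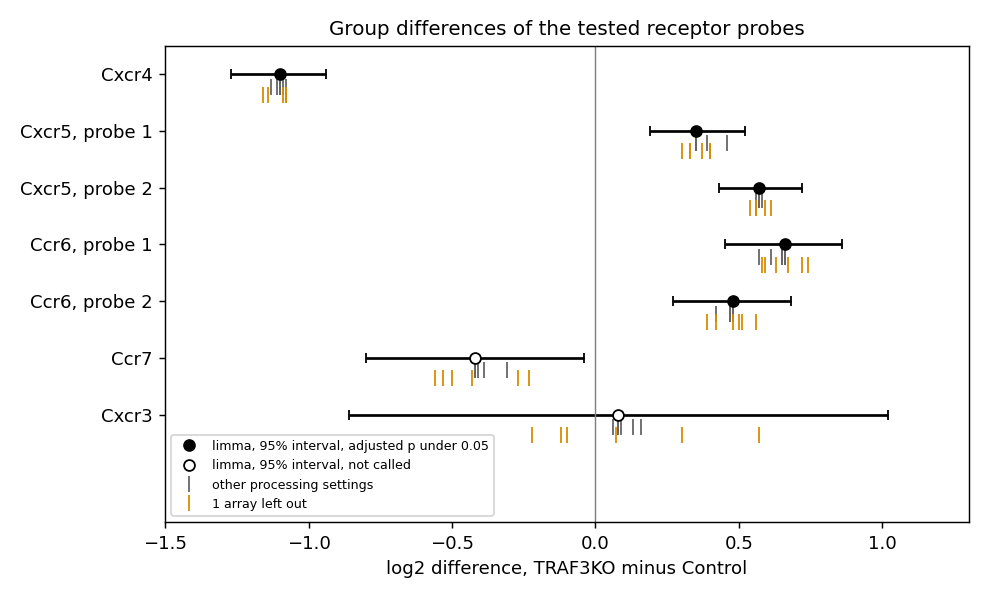
Log2 difference of TRAF3KO minus Control (horizontal axis) for the 7 tested receptor probes, as points with 95% intervals, filled where the adjusted p was under 0.05. Grey ticks are the differences under other processing settings and orange ticks those with 1 array left out: the ticks of Cxcr4, Cxcr5 and Ccr6 stay on 1 side of 0 and those of Cxcr3 fall on both sides.

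The signals of 3 pairs of receptors were also set against each other within each array. The pairs were chosen with the differences above known. Each shift, that of Ccr7 over Cxcr5 included, restates the differences of its receptors, so the ratios are a description and add no support to them. The log2 signal of Cxcr5 over Cxcr4 was 0.13, 0.13 and 0.42 in Control and 1.84, 1.63 and 1.58 in TRAF3KO. This is a shift of 1.46, or 2.75-fold in favour of Cxcr5. The log2 signal of Ccr6 over Cxcr4 was 0.62, 0.51 and 0.49 in Control and 2.17, 2.46 and 2.27 in TRAF3KO, a shift of 1.76 or 3.39-fold. Ccr7 over Cxcr5 went from -2.53, -2.46 and -2.07 to -2.97, -3.33 and -3.08, a shift of -0.77. In all 3 pairs the groups did not overlap. Each exact two-sided permutation test gave p = 0.1 (adjusted p = 0.1 over the 3 pairs), the smallest value that 3 against 3 arrays allow, so the design could not reach the threshold. These are shifts of a ratio between probes and do not give the relative abundance of the receptors.

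**Figure D3:**
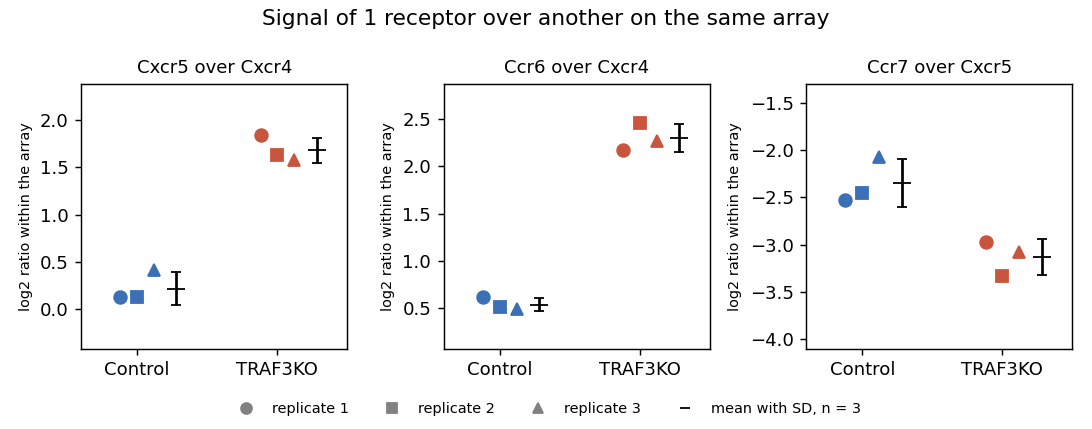
Log2 ratio of the signals of 2 receptors on the same array (vertical axis) for Cxcr5 over Cxcr4, Ccr6 over Cxcr4 and Ccr7 over Cxcr5, with the replicate number as the marker shape and the mean and SD (n = 3) as black bars. The TRAF3KO arrays lie between 1.58 and 1.84 for the first pair against 0.13 to 0.42 in Control, and Ccr7 over Cxcr5 moves downwards.

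The 18 other chemokine receptors on the list gave 6 tested genes, and limma called 0 of them at an adjusted p under 0.05 (1 at an unadjusted p under 0.05, 0 by a linear model without variance moderation). Ccr1, Ccr2 and Ccr4, which are chiefly receptors of myeloid cells and T cells, were listed at 0 on all 6 arrays. Ackr3, the atypical receptor that takes up CXCL12 and so shares its ligand with CXCR4, read 3.20, 0 and 5.11 in Control and 7.43, 6.56 and 7.21 in TRAF3KO. Of the Control arrays only replicate 3 lay above the cut of the filter, so Ackr3 was tested because of its TRAF3KO arrays. The separation of the groups and the calls given next carry this limit. All TRAF3KO arrays lay above all Control arrays, but the difference of 4.30 ± 1.09 missed the threshold (limma adjusted p = 0.056). It was called in 7 of 14 other settings and in 2 of the 6 fits lacking 1 array, and with an offset of 50 added to the intensities the difference shrank to 1.55 (limma adjusted p = 0.0034). Ackr4, the atypical receptor that takes up CCL19, CCL21 and CCL25, differed by 1.14 ± 0.60 (limma adjusted p = 0.39).

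The ligands of the 6 receptors are made mainly by stromal and myeloid cells and were dim in these B cell samples. Of the 10 with a probe, 3 were tested, and limma called 0 (1 at an unadjusted p under 0.05, 0 by the linear model). Cxcl12 differed by 0.42 ± 0.51 (limma adjusted p = 0.74) and Ccl25 by -0.95 ± 0.41 (limma adjusted p = 0.28). A second, dimmer Cxcl12 probe went the other way, at -3.05 ± 1.38 (limma adjusted p = 0.31).

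Of all tested genes 4.44% were called, and the shares among signalling genes downstream of the receptors are given beside this. Among 22 tested G protein, RGS, GRK and arrestin genes 1 rose and 1 fell (9.09%, median difference -0.10, 6 at an unadjusted p under 0.05). Rgs10, a GTPase-activating protein that shortens G protein signals, rose from 9.38 ± 0.38 to 10.36 ± 0.08 (mean and SD, n = 3; limma adjusted p = 0.0087), a call lost without the filter on dim probes (adjusted p = 0.19), without a trend (0.17) and in the linear model (0.22). Gna11, a G protein of the Gq class, fell by 0.46 ± 0.10 (limma adjusted p = 0.034), a call that every one of the 6 fits lacking 1 array lost. Among 26 tested migration effectors 1 rose and 0 fell (3.85%, median -0.04, 7 at an unadjusted p under 0.05). This was Rapgef1, an exchange factor for the integrin regulator Rap1, at 0.86 ± 0.09 on its brightest probe (limma adjusted p = 6.4e-04), while its other 3 tested probes gave 0.53, 0.52 and 0.67 and were not called. The call of the brightest probe was lost under the same 3 settings (adjusted p = 0.075, 0.09 and 0.11), and the linear model called 0 genes of either list. Of 14 genes of CXCR4 uptake and turnover limma called 0 (3 at an unadjusted p under 0.05, 0 by the linear model), with Dpp4, a protease that cuts CXCL12, at 0.25 ± 0.09 and Cd63 at -0.81 ± 0.33.

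Other receptors that place B cells gave 1 higher and 1 lower gene of 9 tested (22.2%, median 0.02). Cnr2, the cannabinoid receptor CB2, rose by 0.31 ± 0.07 (limma adjusted p = 0.028), a call that likewise no fit lacking 1 array kept, and S1pr4, a sphingosine phosphate receptor, fell from 11.22, 11.28 and 11.20 to 10.32, 10.24 and 10.14 (limma adjusted p = 1.5e-04). Of 21 tested transcription factors described upstream of the 6 receptors, 4 rose and 2 fell (28.6%, median 0.07). Nfkb2 and Relb, whose products form the non-canonical NF-kB dimer, rose by 1.74 ± 0.18 and 0.57 ± 0.09, and Pou2af1, the octamer coactivator OCA-B described at the Cxcr5 gene, rose by 0.75 ± 0.08. The calls of Nfkb2, Relb and Pou2af1 were lost without the filter on dim probes (adjusted p = 0.062, 0.082 and 0.092), without a trend (0.058, 0.12 and 0.089) and in the linear model without variance moderation (0.1, 0.12 and 0.1), which called 0 of the 21. Hif1a, described at the Cxcr4 gene, also rose, by 0.47 ± 0.11 (limma adjusted p = 0.038; named after its value was seen). Klf2 and Id3 fell by 0.42 ± 0.08 and 0.62 ± 0.13, and both calls were lost when 1 array was removed, in 4 of 6 such fits each, as well as under the 3 settings just named.

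**Figure D4:**
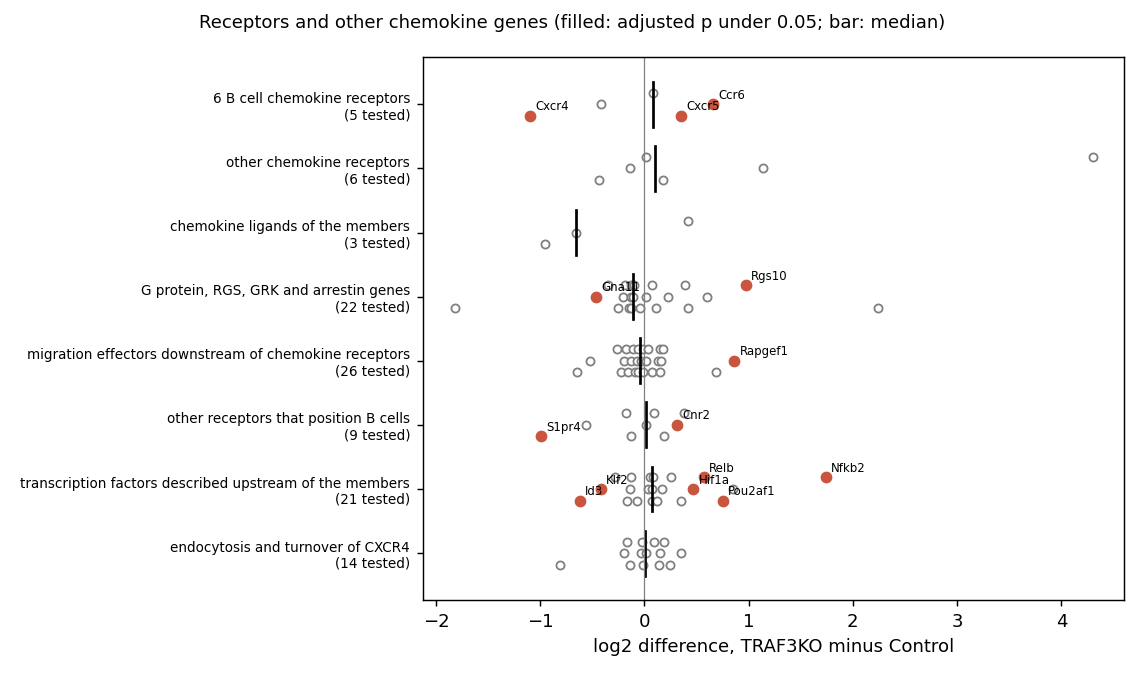
Log2 difference of TRAF3KO minus Control (horizontal axis) for every tested gene of the receptor set and of the 7 lists around it (rows, with the number tested), filled and named where the adjusted p was under 0.05, with the median of each list as a black bar. The list medians lie near 0 except for the 3 tested ligands (-0.66), and the unfilled point at 4.30 is Ackr3.

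Markers that divide splenic B cells were measured beside the receptors, since follicular and marginal zone cells carry these receptors at different levels. Of 10 tested markers 4 rose and 1 fell. The marginal zone markers Cr2, Cd9, Asb2 and Marcks rose by 0.92 ± 0.18, 0.70 ± 0.16, 1.95 ± 0.20 and 0.61 ± 0.08, the integrin subunit Itgb7 fell by 0.88 ± 0.09, and Fcer2a, the follicular marker CD23, differed by -0.01 ± 0.15. Other marginal zone genes did not go with these: Notch2 differed by -0.41 and Cd1d1 by 0.07, neither called, and S1pr3, under the filter, read 3.23, 5.78 and 3.56 in Control and 3.42, 0 and 0 in TRAF3KO. The linear model without variance moderation called 0 of the 10. The summed intensity of 11 such markers was 84977 to 93075 in Control and 92910 to 99154 in TRAF3KO, which overlap. Most of it was Mzb1, and without Mzb1 it was 31471 to 39950 and 34157 to 38016. The sum pools follicular with marginal zone genes and so cannot show a shift between them. None of the 11 was at the floor on every array. Their part in the receptor results was not tested.

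Markers listed for other cell types were measured on the same arrays, and several were bright. In bulk RNA their values do not tell which cells, B cells included, carried the transcripts. The haemoglobin chain Hba-a1 lay at 16.12 in Control and 16.05 in TRAF3KO, near the top of the scale, and Lyz2 at 10.49 and 8.87 (means of log2 intensity). Of 8 tested monocyte and macrophage markers 1 rose (Spic) and 2 fell (Lyz2 and C1qc), and the linear model called 0. C1qc read 8.66, 5.4 and 8.42 in Control and 5.07, 2.17 and 0 in TRAF3KO, so it passed the filter only through Control. A second Lyz2 probe, at -1.44 ± 0.42, was not called (limma adjusted p = 0.1). The summed intensity of 11 such markers was 2189 to 5660 in Control and 2082 to 3028 in TRAF3KO, ranges that overlap. Of 9 tested dendritic cell markers 2 rose on signal present in both groups (Ly6d and Tcf4) and 1 fell (Cst3), and Zbtb46 was also called higher but read 0 in Control throughout and passed the filter only through TRAF3KO, with sums over 11 of 68850 to 76977 and 88832 to 94198, and with 51316 to 54343 and 50846 to 54201 once Ly6d is left out. Most of the sum without Ly6d was Tcf4, Cst3 and Irf8. Flt3, Siglech and Xcr1 were dim and not called, with means of 4.21, 6.59 and 5.59 in Control and 4.85, 6.6 and 5.6 in TRAF3KO. Itgax, the dendritic cell integrin CD11c, lay at the floor on all 6 arrays. Of 7 tested erythroid markers 1 fell (Car2), with sums over 8 of 79204 to 83937 and 63450 to 79620, most of it Hba-a1, and 7813 to 12595 and 1611 to 8407 without Hba-a1. TRAF3KO replicate 1 was the lowest of its group, with Hbb-b2 at 8.58 against 10.78 and 11.14. Limma called 0 of 5 natural killer cell markers (1 at an unadjusted p under 0.05) and 0 of 4 neutrophil markers (0 at an unadjusted p under 0.05), and the linear model called 0 of either. The sums over 9 natural killer cell markers were 2547 to 3954 in Control and 2790 to 3376 in TRAF3KO. Most of that was Prf1, and without Prf1 they were 145 to 243 and 117 to 210. Over 7 neutrophil markers the sums were 173 to 358 and 104 to 153, lower on every TRAF3KO array. Of 9 tested B cell markers 1 fell (Fcrla) and 8 were not called. The summed intensity of the 9 was lower on every TRAF3KO array, at 241341 to 255677 against 262686 to 265586 in Control. Without Cd79b it was 172292 to 187890 against 191310 to 199947. Fcrla was among the brightest of them, at 15.98, 15.95 and 15.9 in Control and 15.6, 15.57 and 15.71 in TRAF3KO. The sum without Fcrla was not taken, so a fall of the other B cell markers cannot be read from these sums. The part of these markers in the receptor results was not tested.

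Likeness of pattern was described by Pearson's r over the 6 arrays between a receptor's brightest probe and all other tested genes. The 3 nearest genes to Cxcr4 were Kyat1 (r = 0.997), Ube2j2 (0.996) and Hcrtr2 (0.996), and 142 genes exceeded 0.95. Nearest to Cxcr5 were Babam1 (r = 0.993), Cluap1 (0.992) and Pfkfb2 (0.988), and nearest to Ccr6 were Tmem17 (r = 0.995), Slc7a6 (0.992) and Acsl3 (0.991), with 62 genes over 0.95 in each case. Cnot6l, Hbp1 and Klhdc1 were nearest to Ccr7 (r = 0.991, 0.985 and 0.982), and Zmynd8, Olfr1006 and Polr1c to Cxcr3 (r = 0.988, 0.982 and 0.980). With 6 arrays in 2 groups such values rest largely on the group difference for Cxcr4, Cxcr5 and Ccr6. Of these 15 genes, Kyat1 (limma adjusted p = 0.036) and Tmem17 (limma adjusted p = 0.032) were themselves called.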

How the data were processed

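RNA of 6 mouse splenic B cell samples, 3 Control and 3 TRAF3KO as grouped by the titles in the labels, was measured on Illumina bead arrays. The deposited table holds log2 intensities that the authors had made comparable between arrays (array medians differed by 0.00705 at most). Per the submitters' processing notes BeadStudio 3.2.3 was used, with no role stated, and the sources used here do not give how background, normalisation and floor were handled. Between 8049 and 8065 probes per array lay at the floor. No detection p was used, and precision is limited by the number of arrays.

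The platform annotation gave 1 gene symbol to 23141 probes and none to 2556. The values were used as deposited. Probes above the 40th percentile on at least 3 arrays (15657) entered a limma fit (version 3.58.1, R 4.3.3; lmFit, eBayes with a trend, group alone in the design), with Benjamini-Hochberg adjustment over all of them, and read out for 10304 genes. Genes named beside the 6 receptors were up to 5 called genes of each list with the lowest adjusted p (2 with the lowest p where none was called) and the 3 genes most alike in pattern, leaving out predicted and clone names. The markers of cell types were described by the same lists, of which only those that bear on a receptor are discussed at length. The receptors and lists were chosen with earlier results of these data known. Promoter windows came from RefSeq (GRCm38.p6), with 4 of the 6 receptors matched by symbol. No coordinates are given for the probes, since no build is named for the array.

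Same-numbered arrays deviated together very little (correlations of deviations from the group means 0.03 to 0.04 over kept probes). Arrays of unlike number gave -0.05 to 0.01. On simulated data of the 15657 kept probes, the fit recovered 24%, 42%, 76% and 86% of 50 probes each changed by log2 0.5, 1, 2 and 4, with 6 false calls among 120. Alternatives were other normalisations, filters, variance models, offsets, array weights, blocks and probe rules, and leaving out each array.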

Additional observations from a re-analysis of the deposited data

How the results depend on the processing

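Cxcr4 was called lower in each of 15 alternative settings (differences -1.13 to -1.08) and in each fit lacking 1 array (-1.16 to -1.08). Cxcr5 (0.35) and Ccr6 (0.66) kept their direction throughout, but lost their calls without the filter on dim probes (adjusted p = 0.17 and 0.12), with eBayes without a trend (0.23 and 0.14) and with a linear model without variance moderation (0.2 and 0.16), which left 1 of the 5 tested receptors called, Cxcr4. Under those 3 settings 114, 65 and 37 genes were called in all, against 457, of which 82, 47 and 24 were among the 457; the cause was not tested. With 1 array left out, fewer samples were fitted, and 227 to 382 genes and 2 to 3 receptors were called. The differences then ran from 0.30 to 0.40 for Cxcr5, 0.58 to 0.74 for Ccr6, -0.56 to -0.23 for Ccr7 and -0.22 to 0.57 for Cxcr3. Cxcr3 changed sign without Control replicate 1 (-0.12), TRAF3KO replicate 1 (-0.22) or TRAF3KO replicate 2 (-0.10), and Cxcl12 with the mean of its probes (-1.31). Ccr7 and Cxcr3 were called in none of these fits. Without 1 array the ratio shifts ran from 1.38 to 1.55 (Cxcr5 over Cxcr4), 1.68 to 1.82 (Ccr6 over Cxcr4) and -0.86 to -0.63 (Ccr7 over Cxcr5). With the replicate number as a block 468 genes and the same 3 receptors were called, and with inferred sex as a block 319 genes and those 3. Whether the replicate numbers pair the samples is not known. Groups of 3 arrays were not searched for outlying arrays.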
